A study of Rattus norvegicus with 72 samples.

Results

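Chemokine ligands are the small secreted proteins that steer white blood cells. They were taken here as every probe of the expression matrix whose gene symbol began with Ccl or Cxcl and a number, or was Cx3cl1, Xcl1, Pf4 or Ppbp. The rule found 39 probes of 32 genes among the 41012 probes of the rat array. The file itself carried such a symbol for 23 of the probes, and the others were named through the current RefSeq symbol of their accession, gene identifier or older symbol. The tissue was the medial collateral ligament, a band that steadies the knee on its inner face, and the rats were adult male Sprague-Dawley animals. In 1 set of rats the ligament was severed. In the sham set both knees were operated on and the ligament was left whole, under the same anaesthesia (isoflurane) and pain relief (buprenorphine). Ligaments were taken 1, 2, 4, 7, 10 or 14 days later, with 5 severed and 5 sham ligaments a day and 3 of each on day 7. Further groups were 5 ligaments of unmanipulated rats, 5 columns of fibroblasts grown out of rat ligament and kept through serial passages, and a universal rat reference RNA in 3 columns labelled with Cy5 and 3 labelled with Cy3. Serial passages are not independent cultures, and the fibroblast columns could not be matched to a passage. The reference columns are repeats of 1 RNA.

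As background, chemokines bind receptors on white blood cells and draw them along a gradient. The CXC chemokines of the Cxcl1 type draw neutrophils through Cxcr2, and Ccl2, Ccl7 and Ccl12 draw monocytes through Ccr2. Fibroblasts and macrophages release both kinds after tissue damage, largely under control of the transcription factor NF-kB. Others are made without inflammation, such as Cxcl12, which holds stem cells and lymphocytes in place through Cxcr4, and Ccl21, made by lymphatic vessels, which calls Ccr7-bearing cells. Platelets store Pf4 and Ppbp in their granules. In bulk tissue, fewer cells of a type and less RNA per cell cannot be told apart.

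A level below is the log2 of the quantile-normalised intensity in 1 column, a column being 1 sample in 1 dye. Intensities below 50 were set to 50, so 5.64 is the floor of the scale. Differences are log2 differences with their standard error (SE), and levels are given with the SD. Levels were computed over 70 columns. Replicate 2 of severed day 7 was left out, as was replicate 4 of severed day 4, in which 82 and 73 of 82 stretches of spots did not follow the other columns. Such misread stretches were also left out in 17 of the 70 columns. This removed 132 of 2730 chemokine values. Differences come from 2 fits, one over 72 columns, as designed, and one over these 70, which was added after the data had been seen. The fits also left out different spots, since stretches followed file order in the first and spot number in the second. In fibroblast column 1 this took out 23 and 35 of 82 stretches, and in severed day 14 replicate 1 it took out 2 and 29. Median intensity ran from 8 to 567 over the 70 columns, and 10.7% to 86.5% of spots stood above the negative controls. Within a day the severed and sham columns differed in dye as well as in operation, and only the reference RNA, read in both dyes, gave an estimate of the dye. On day 2 the labels and the file headers disagree on which columns carry which dye, so its severed and sham columns carry a doubt.

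A probe was called above the negative controls where its intensity was higher than 95% of the negative control spots of the same column, which 5% of probes without signal would pass. Ccl6 and the brighter Cxcl12 probe (A_44_P1034439) passed in all 59 ligament columns. Ccl21 passed in 98.1% and the other Cxcl12 probe (A_44_P337351) in 91.8%. The bar plot of detection ranks all 39 probes. In all, 17 probes of 15 genes, or 43.6% of the 39, passed in at least 50% of ligament columns, compared with 29.5% of all probes. Besides those of Ccl6, Cxcl12 and Ccl21 these were probes of Ccl7, Ccl27, Pf4, Ccl3, Ccl5, Cx3cl1, Ppbp, Ccl17, Ccl12, Ccl19, Ccl2 and Cxcl17. At the other end, 8 probes passed in under 10% of columns, where 22.2% of all probes did. They belong to Cxcl14, Ccl24 (both probes), Cxcl6, Ccl9, Cxcl11, Ccl2 (A_44_P224297) and Cxcl3 (A_44_P255029). In the reference RNA, a mix that the label does not break down further, 26 of the 39 probes passed in every column.

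**Figure D1:**
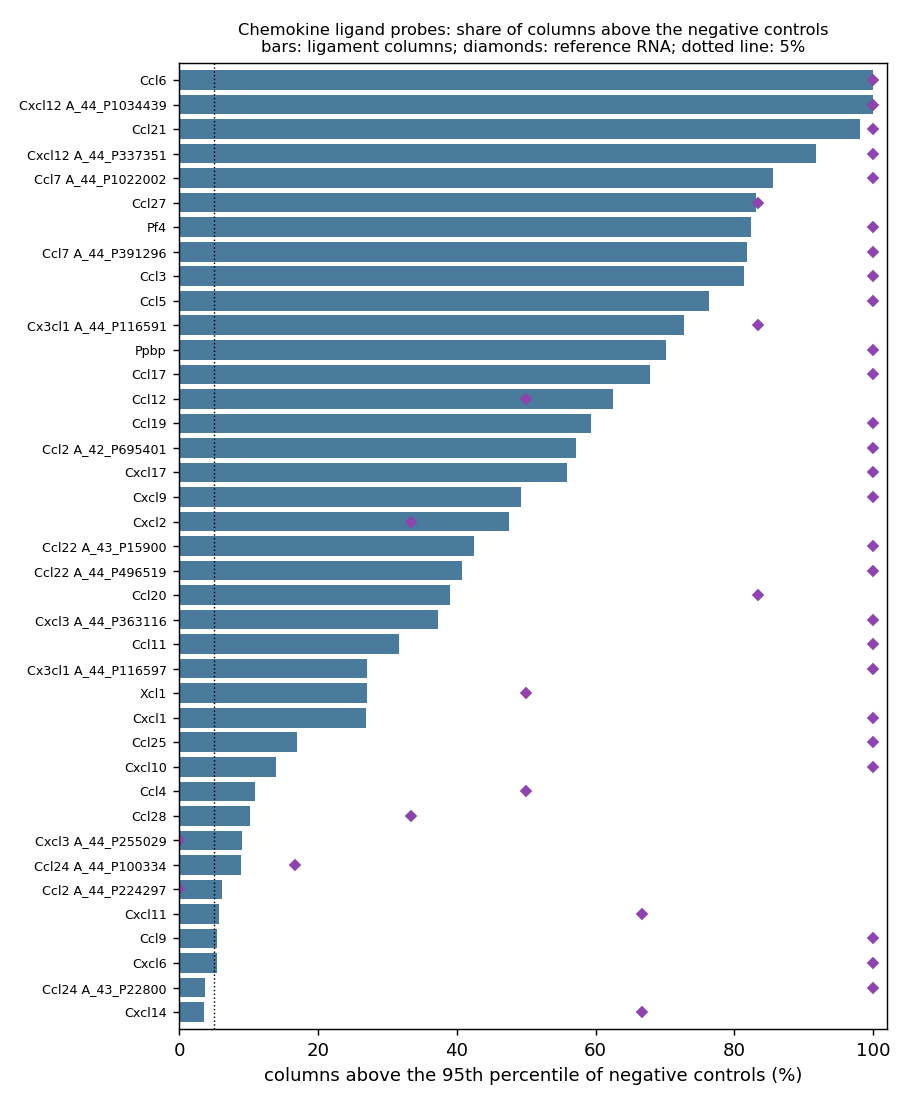
Percent of ligament columns (x axis) in which each of the 39 chemokine probes (y axis) had an intensity higher than 95% of the negative control spots, with diamonds for the reference RNA columns and a dotted line at 5%. Ccl6 and Cxcl12 stand at 100%, and Cxcl14 and 1 probe of Ccl24 lie left of the dotted line.

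The steadily detected chemokines of the ligament were Ccl6, Cxcl12 and Ccl21. Ccl6, a CC chemokine of rodents made by myeloid cells, stood at 12.13, 12.25, 12.44, 12.18 and 12.16 in the 5 unmanipulated ligaments. Over all ligament columns Ccl6 ran from 8.24 to 13.86 with a median of 11.76. Every injured or sham group therefore held Ccl6 well above the floor, and its lowest value was a single severed ligament of day 10.

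Cxcl12 (A_44_P1034439) stood at 11.10, 11.56, 10.46, 11.18 and 10.37 in unmanipulated ligament. In severed ligament of day 14 Cxcl12 stood at 11.31, 12.75, 12.92, 13.20 and 10.78, so that 3 of 5 ligaments lay above all unmanipulated ones. Severed ligaments of that day averaged 12.19 ± 1.08 (SD, n = 5). Sham ligaments averaged 10.96 ± 1.20 (SD, n = 5), and the groups overlapped. For severed day 14 minus unmanipulated, this probe differed by 1.08 ± 0.38 in the 72-column fit of limma (adjusted p = 0.106). The other probe (A_44_P337351) ran from 10.45 to 10.95 in severed ligament of day 14. In unmanipulated ligament it ran from 9.5 to 10.43, without overlap. It averaged 10.71 in severed and 10.49 in sham ligament of day 14. On day 10 the probes went opposite ways. A_44_P1034439 averaged 12.01 in severed and 11.35 in sham ligament, and A_44_P337351 averaged 9.96 and 11.17.

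Ccl21 stood at 12.44, 13.31, 11.85, 11.80 and 11.87 in unmanipulated ligament and at 11.87, 13.39, 12.08, 11.88 and 12.15 in sham ligament of day 1. In severed ligament of day 1 Ccl21 stood at 9.97, 12.04, 10.95, 11.51 and 10.42. All but 1 of these 5 lay below every sham value of that day. Severed minus sham was -1.11 ± 1.34 in the 72-column fit and -1.32 ± 0.92 in the 70-column fit (limma, adjusted p = 1 in both). Ccl27, a chemokine best known from skin, was above the negative controls in 83.1% of ligament columns with a median level of 8.27.

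**Figure D2:**
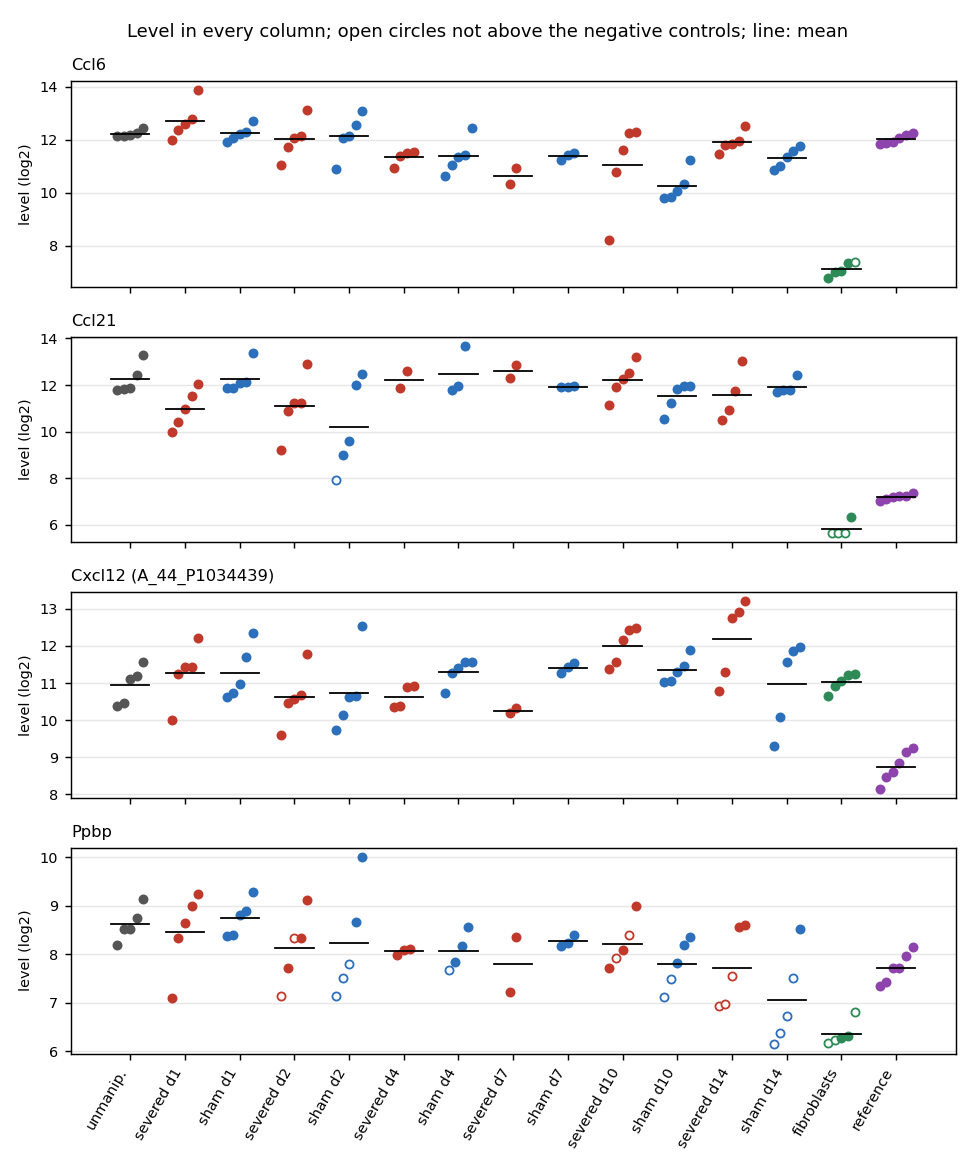
Level (log2 normalised intensity, y axis) of Ccl6, Ccl21, Cxcl12 and Ppbp in every column, by group (x axis), with open circles for values not above the negative controls and a line at the group mean. Ccl6, Ccl21 and Ppbp are lowest in the fibroblasts, and Cxcl12 is lowest in the reference RNA.

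The comparison of severed with sham ligament asks what cutting the ligament adds to the operation. By limma no chemokine probe passed an adjusted p of 0.05 in the mean over the days balanced for dye, in any of the 6 days or in either comparison of days, in either fit. Among all probes, the 72-column fit called 0.00244% in the balanced mean, 0.0025% on day 14, 0.00244% in the change from day 2 to the later days and 0% in the others. The 70-column fit called 0.0342% in the balanced mean, 0.00244% on days 1 and 10, 0.0147% on day 14 and 0.00489% in the change from day 2. Of the 39 chemokine probes, 2 had an unadjusted p under 0.05 in the balanced mean, where 5.85% of all probes did. On single days this was so of 1 probe on day 7, beside 2.49% of all probes, and of 0 on the others. In the 70-column fit it was so of 2 on day 1 and 2 on day 7, beside 1.26% and 1.88%, and of 0 on the others. The chemokine probes lay between -0.52 and 0.69 in that mean, 23 above 0 and 16 below. Their median was 0.01, compared with 0.00 over all probes. The smallest adjusted p was that of Ccl12, a monocyte chemokine of rodents, at 0.54 ± 0.19 (adjusted p = 0.594) or 0.72 ± 0.22 in the 70-column fit (adjusted p = 0.376). The median SE of chemokine probes within a single day was 0.825 to 0.978 in the 72-column fit.

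On day 1 the levels of 4 chemokine probes were higher in all 5 severed than in all 5 sham ligaments: Cxcl1, Cxcl3 (A_44_P363116), Ccl11 and Cxcl17. That is 10.3% of the 39, where 1.69% of all probes separated the groups this way. None was lower in all 5, where 1.62% of all probes were. The severed columns of this day were all in Cy3 and the sham columns all in Cy5, so dye and operation cannot be told apart in these counts.

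Cxcl1, a ligand of Cxcr2 that draws neutrophils, stood at 7.95, 8.46, 8.77, 8.99 and 10.30 in severed ligament of day 1. In sham ligament Cxcl1 stood at 7.31, 6.42, 7.55, 6.43 and 7.77, and in unmanipulated ligament at 7.29, 6.34, 7.66, 7.21 and 6.98. All 5 severed values were above the negative controls, against 3 of 5 sham and 2 of 5 unmanipulated values. Severed minus sham was 1.46 ± 1.07 in the 72-column fit and 1.92 ± 0.65 in the 70-column fit (limma, adjusted p = 1 in both). Without the dye term the 70-column fit gave 1.80 and called it (adjusted p = 0.0445).

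Cxcl2, its close paralog, stood at 8.03, 8.51, 9.40, 9.83 and 10.91 in severed and at 8.20, 7.17, 7.52, 7.80 and 7.97 in sham ligament of day 1. All but 1 severed ligament lay above every sham ligament. The difference was 1.11 ± 0.83 in the 72-column fit and 1.43 ± 0.92 in the 70-column fit (limma, adjusted p = 1). Cxcl3 (A_44_P363116), named through the older symbol in the file, stood at 7.95, 8.04, 7.97, 8.13 and 8.08 in severed ligament. In sham ligament it stood at 7.32, 5.64, 7.09, 6.24 and 7.33, a difference of 1.40 ± 0.76 in the 72-column fit (limma, adjusted p = 1). The other Cxcl3 probe (A_44_P255029) averaged 6.23 in severed and 6.11 in sham ligament, with 0 and 1 of 5 above the negative controls. Cxcl1, Cxcl2 and Cxcl3 are close copies of one another, and cross-hybridisation among their probes was not tested.

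Promoters are shown for 3 genes described on day 1, since 2 of them, Cxcl1 and Cxcl2, hold an NF-kB-like sequence and Ccl7 does not. For 25 of the 32 genes RefSeq (assembly GRCr8) gave a start, and the 250 bases before it were read. Both strands were searched for a form of the NF-kB site, which is GGG, any 2 bases and then TTTCC, and for TATAAA, and the 2 motifs cannot overlap. The first was in 5 of 25 windows (Ccl9, Ccl20, Cxcl1, Cxcl2 and Cxcl6), compared with 1.3% of the 33469 windows of all genes. TATAAA was in 9 of 25, compared with 12.9%. Shown are Cxcl1 at chr14:17479322-17479571 (minus strand), Cxcl2 at chr14:17467256-17467505 (minus strand) and Ccl7 at chr10:67513845-67514094 (plus strand), each 5′ to 3′ and ending at the base before the start. Capitals mark the NF-kB form on either strand in Cxcl1 and Cxcl2 and TATAAA in Ccl7.
Cxcl1: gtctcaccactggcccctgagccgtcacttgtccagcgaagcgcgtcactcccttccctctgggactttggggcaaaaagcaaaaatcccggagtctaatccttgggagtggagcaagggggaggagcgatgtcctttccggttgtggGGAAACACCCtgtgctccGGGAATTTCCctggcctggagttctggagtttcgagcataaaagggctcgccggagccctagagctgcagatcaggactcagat
Cxcl2: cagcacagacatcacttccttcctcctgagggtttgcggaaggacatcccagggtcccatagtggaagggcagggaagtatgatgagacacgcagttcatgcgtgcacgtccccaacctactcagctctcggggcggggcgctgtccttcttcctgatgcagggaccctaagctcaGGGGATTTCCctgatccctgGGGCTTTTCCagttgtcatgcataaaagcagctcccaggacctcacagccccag
Ccl7: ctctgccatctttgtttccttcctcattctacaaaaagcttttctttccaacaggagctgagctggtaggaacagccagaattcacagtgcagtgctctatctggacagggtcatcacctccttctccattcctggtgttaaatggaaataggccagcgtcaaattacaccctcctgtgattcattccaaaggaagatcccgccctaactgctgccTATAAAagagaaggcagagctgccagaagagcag
The windows of Cxcl1 and Cxcl2 each held 2 matches to the NF-kB form, and that of Ccl7 held none. A match is a description of letters and not of binding.

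Ccl11, which draws eosinophils, was described after its values had been seen. It stood at 8.06, 9.51, 8.36, 8.87 and 9.37 in severed and at 6.75, 7.88, 7.33, 6.03 and 7.68 in sham ligament of day 1. Ccl11 was above the negative controls in all 5 severed ligaments and in 3 of 5 sham ligaments, against 1 of 5 unmanipulated ones, which stood at 5.64, 6.32, 6.94, 6.10 and 5.85. Severed minus sham was 1.39 ± 0.76 in the 72-column fit and 1.82 ± 0.68 in the 70-column fit (limma, adjusted p = 1). Scaling to the median in place of quantiles gave 2.55 (adjusted p = 0.0208). Cxcl17 stood at 8.13, 7.92, 7.99, 8.0 and 8.51 in severed and at 7.71, 7.47, 7.68, 7.90 and 7.55 in sham ligament, a difference of 0.42 ± 0.74 (72-column fit of limma, adjusted p = 1).

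Ccl7, a monocyte attractant, has 2 probes. Its probe A_44_P1022002 stood at 11.14, 11.40, 11.50, 11.95 and 12.26 in severed and at 10.90, 9.69, 10.24, 10.59 and 11.21 in sham ligament of day 1. All but 1 of the severed ligaments lay above every sham ligament. Severed minus sham was 0.96 ± 1.01, and 1.00 ± 0.92 for A_44_P391296 (72-column fit of limma, adjusted p = 1). Ccl3, a macrophage inflammatory protein, averaged 10.03 ± 0.56 (SD, n = 5) in severed ligament. Sham ligament averaged 9.25 ± 0.22 (SD, n = 5) for Ccl3, a difference of 0.61 ± 0.46 (limma, adjusted p = 1). Ccl20, which draws Ccr6-bearing lymphocytes, stood at 6.42, 8.93, 7.87, 8.79 and 8.53 in severed ligament of day 1, and its difference from sham was 1.22 ± 0.96 in the 72-column fit (limma, adjusted p = 1).

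**Figure D3:**
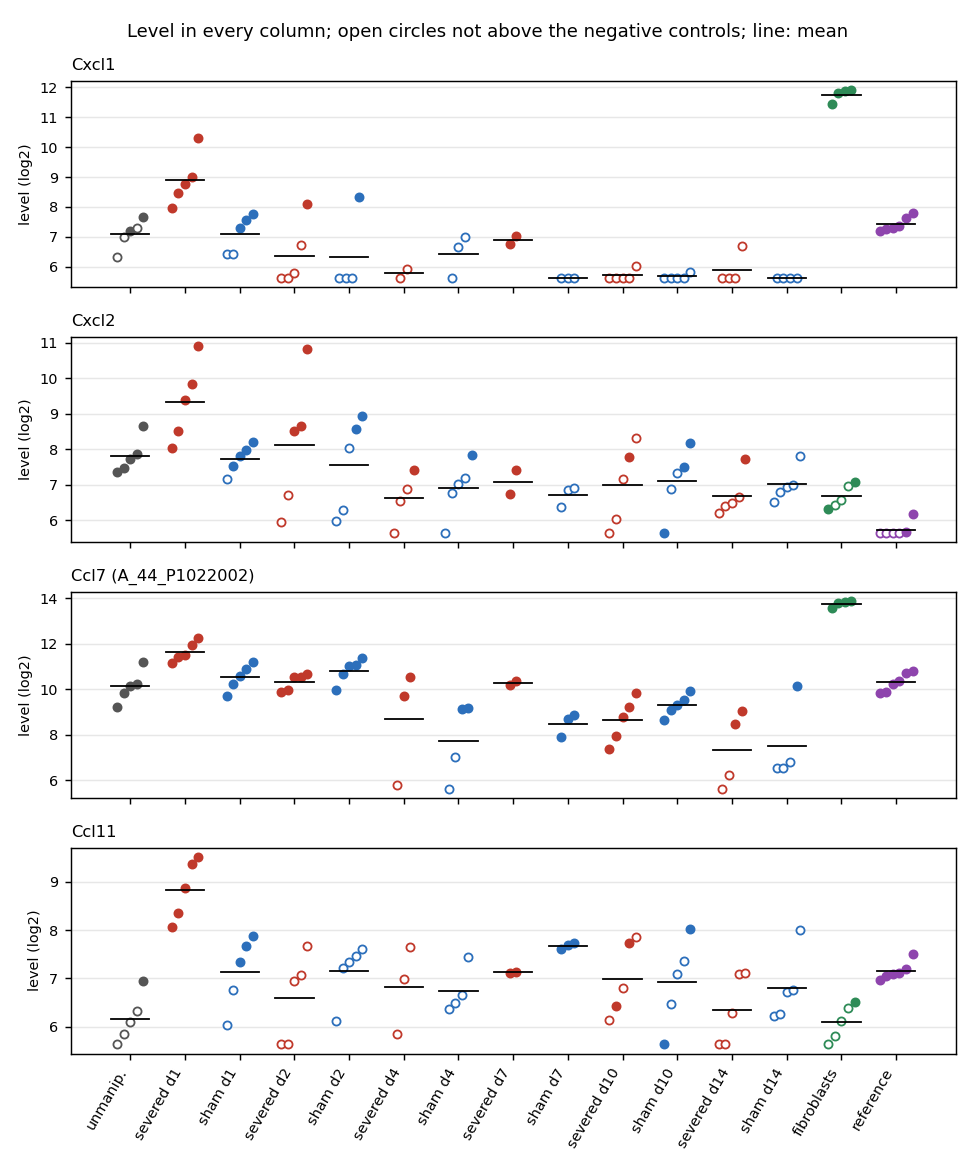
Level (log2 normalised intensity, y axis) of Cxcl1, Cxcl2, Ccl7 (A_44_P1022002) and Ccl11 in every column, by group (x axis), with open circles for values not above the negative controls and a line at the group mean. On day 1 the 5 severed values of Cxcl1 (7.95 to 10.30) and of Ccl11 (8.06 to 9.51) lie above all sham values.

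Of the marker lists of ligament and of other cells, no probe passed in severed minus sham of day 1 in either fit of limma. The neutrophil marker genes summed to 2710 to 19500 units of normalised intensity in severed and to 2780 to 7290 in sham ligament of day 1, with overlap. Macrophage markers summed to 5070 to 7350 and 5630 to 9110. Ligament markers, such as the collagens and tenomodulin, summed to 74300 to 212000 in severed and to 270000 to 356000 in sham ligament, without overlap. The part of these cell markers in the chemokine values was not tested.

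Day 4 had the same dyes as day 1, so that the dye cancels in the change from day 1 to day 4. That change of the severed minus sham difference was -1.85 ± 1.16 for Cxcl1 in the 72-column fit and -2.45 ± 0.70 in the 70-column fit (limma, adjusted p = 1 in the 72-column fit, and not past the threshold in the other). Cxcl1 was above the negative controls in 0 of 2 severed and 0 of 3 sham ligaments of day 4. For Cxcl2 the change was -0.77 ± 0.79 or, in the 70-column fit, -1.88 ± 0.82, for Ccl11 -1.35 ± 0.63 or -1.62 ± 0.65, and for Cxcl3 (A_44_P363116) -1.50 ± 0.68 or -1.49 ± 0.67 (limma, adjusted p = 1 throughout). None passed. Since these genes are described for standing high in severed ligament on day 1, a change below 0 carries no further evidence. Over all 39 probes 19 changes were above 0 and 20 below in the 72-column fit. The Ccl7 and Ccl3 changes were small and differed in sign between the fits or between the probes. Ccl7 gave 0.35 ± 1.08 and -0.18 ± 0.98 for A_44_P1022002 in the 72- and 70-column fits, and Ccl3 gave 0.01 ± 0.50 and -0.51 ± 0.65.

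On days 2, 4, 10 and 14 at most 1 chemokine probe a day separated severed from sham ligament. On day 2 none did, beside 0.646% of all probes higher and 0.622% lower, and on day 4 only Ccl2 was higher in all severed ligaments, with 2 columns against 3. Ccl12 was lower in all 5 severed ligaments on day 10 and Ccl5, a T cell attractant, in all severed ligaments on day 14. Each is 2.56% of the 39 probes, beside 2.16% of all probes on day 4, 1.47% on day 10 and 1.8% on day 14. In the other direction, with no chemokine, stood 2.06%, 0.824% and 2.57%. On day 7, with 2 columns against 3, 8 probes were higher and 10 lower without overlap, beside 17.9% and 16.2% of all probes. Those 3 sham columns lay close together, with an SD of log2 differences of 0.187 to 0.348 between pairs over bright probes. The closest pair in any other ligament group stood at 0.339. Cxcl9, an interferon-induced T cell attractant, stood at 10.29, 8.89, 8.21, 8.69 and 7.96 in sham and at 7.11, 8.34, 5.64, 8.04 and 5.82 in severed ligament of day 2, the day whose dyes are in doubt. Their ranges overlapped, and severed minus sham was -0.55 ± 0.78 (72-column fit of limma, adjusted p = 1). Cxcl10, of the same group, was above the negative controls in 8 of 57 ligament columns.

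Ccl2, the classic monocyte attractant, did not give a graded reading. Its bright probe (A_42_P695401) stood at 5.64, 12.32, 13.21, 14.31 and 5.64 in unmanipulated ligament. In severed ligament of day 1 Ccl2 stood at 5.64, 5.64, 14.24, 14.52 and 14.77, and in sham ligament at 5.64, 5.64, 13.58, 13.65 and 14.69. Values were thus either at the floor or among the brightest of the array: of 49 ligament columns 27 stood over 10, 19 under 7 and 3 between. On the 20 arrays that carried a severed and a sham column with a value, both were over 10 on 11 and both under 7 on 6, and no array had one over 10 and the other under 7. The other Ccl2 probe was above the negative controls in 3 of 49 columns. Severed minus sham of day 1 was 0.06 ± 3.43 for the bright probe, an error that leaves Ccl2 without a usable comparison.

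Pf4, the platelet chemokine, behaved alike in part. It stood over 10 in 42 of 51 ligament columns and under 7 in 8, and on 21 shared arrays both columns were over 10 on 17, both under 7 on 3, and in no case split. In severed ligament of day 1 Pf4 stood at 14.31, 5.64, 14.56, 11.79 and 15.79. Of all 41012 probes, 660 had at least 10 columns under 7 and 10 over 10, and 417 of these lay among the 9201 probes with spot numbers under 10000, as the bright Ccl2 probe and Pf4 do. The cause was not tested, and the values of Ccl2 and Pf4 in ligament are given as the file holds them. The plot of shared arrays shows both.

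**Figure D4:**
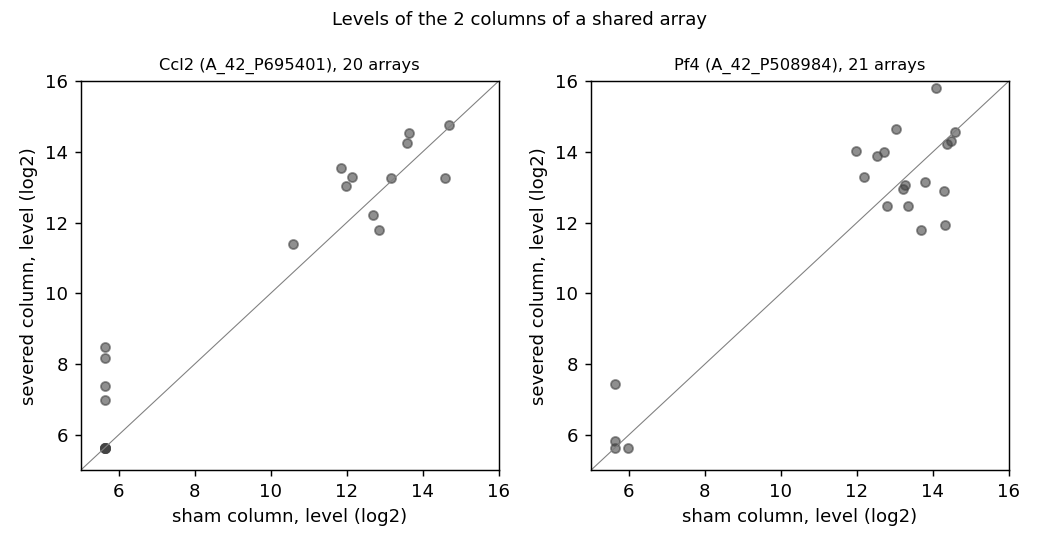
Level (log2 normalised intensity) of Ccl2 (A_42_P695401, 20 arrays) and Pf4 (21 arrays) in the severed column (y axis) against the sham column (x axis) of the same array, with the line of equality. Both columns stand over 10 on 11 arrays for Ccl2 and 17 for Pf4 and both under 7 on 6 and 3, and the other points have a column between 7 and 10.

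Comparison with unmanipulated ligament was made only where both groups were in Cy5 by the file headers, and these comparisons share the same 5 unmanipulated columns. For severed ligament of day 2 the labels disagree with the headers, so a dye effect may remain in its comparison. By limma 0 chemokine probes passed in sham ligament of day 1 or day 4 and in severed ligament of day 2 or day 7, where 0.00488%, 0.129%, 3.03% and 0.11% of all probes passed in the 72-column fit and 0%, 0.244%, 4.69% and 0.252% in the 70-column fit. At an unadjusted p under 0.05 stood 1, 8, 7 and 1 of the 39, beside 4.04%, 10.6%, 18.7% and 6.09% of all probes. On day 10 and on day 14, 2 chemokine probes passed, beside 2.86% and 2.53% of all probes. The 70-column fit called 3 and 1, beside 3.83% and 3.18%.

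Cxcl14, an epithelial and stromal chemokine, was above unmanipulated ligament on both days in the 72-column fit but stayed near the limit of detection. It stood at 5.64, 5.71, 5.64, 5.64 and 5.64 in unmanipulated ligament, at 8.02, 6.47, 5.64, 5.64 and 8.18 in severed ligament of day 10 and at 6.50, 6.34, 6.92, 6.76 and 7.5 in that of day 14. Only 1 of these 15 values was above the negative controls. The difference was 1.61 ± 0.41 on day 10 and 1.81 ± 0.41 on day 14 (limma, adjusted p = 0.0204 and 0.00786). In the 70-column fit it was 1.13 and 1.15 and did not pass (adjusted p = 0.054 and 0.0571), and the call was also lost without replicate 1 or 5 on day 10 and without replicate 3 or 5 on day 14. With median scaling Cxcl14 differed by 0.78 and 0.09. No Cxcl14 value of day 14 and only 1 of day 10 was above the negative controls, so no fold is given. Sham ligaments, in Cy3, averaged 6.79 for Cxcl14 on day 10 and 6.67 on day 14, beside 6.79 and 6.80 in severed ligaments.

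Ccl3 was lower on day 10, at 7.44, 8.56, 6.69, 8.14 and 7.23 in severed against 8.91, 8.83, 9.27, 8.99 and 8.80 in unmanipulated ligament, without overlap. The difference was -1.0 ± 0.28 (72-column fit of limma, adjusted p = 0.0387) and the call was lost in the 70-column fit at -1.35 (adjusted p = 0.0674) and without replicate 1, 3, 4 or 5, at -0.98, -0.76, -1.1 and -0.96. Ccl7 (A_44_P1022002) fell on day 14, with 8.47, 5.64, 6.22 and 9.05 in severed against 10.14, 9.23, 9.84, 10.22 and 11.19 in unmanipulated ligament. The difference was -2.33 ± 0.62 in the 72-column and -2.77 ± 0.66 in the 70-column fit (limma, adjusted p = 0.0273 and 0.00907), and the call was lost without replicate 2, 3 or 4, at -2.77, -2.01 and -2.15. It was also lost with misread stretches kept, at -2.33, and in the authors' value table, at -2.29 (adjusted p = 0.101 and 0.212). Sham ligaments, in Cy3, averaged 8.77 for Ccl3 on day 10, beside 7.61 in severed ligaments. For Ccl7 (A_44_P1022002) on day 14 they averaged 7.52, beside 7.35. In severed ligament of day 14 macrophage markers summed to 3410 to 4520 and neutrophil markers to 1720 to 3760, against 5160 to 8010 and 4070 to 7640 in unmanipulated ligament. Endothelial markers summed to 6780 to 12000, against 2650 to 3910. Their part in the result was not tested.

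In the 70-column fit 3 probes passed on day 10, all lower in severed ligament, beside 3.83% of all probes. They were Ccl7 (A_44_P391296) at -2.22 ± 0.51, Ccl5 at -2.77 ± 0.71 and Cxcl1 at -1.37 ± 0.40 (limma, adjusted p = 0.00706, 0.0161 and 0.0388). Ccl5 stood at 5.64, 9.25, 7.15, 5.72 and 8.10 in severed ligament of day 10 and at 9.94, 10.29, 9.65, 10.24 and 9.62 in unmanipulated ligament. Cxcl1 stood at 5.64 in 4 of 5 severed ligaments of that day and at 6.04 in the other, none above the negative controls. Of the 5 unmanipulated values only 2 were above them, so no fold is given. Sham ligaments of day 10, in Cy3, averaged 5.68 for Cxcl1 and 6.90 for Ccl5, beside 5.72 and 7.17 in severed ligaments. For Ccl7 (A_44_P391296) they averaged 9.18, beside 7.84. Beside these, macrophage markers summed to 2860 to 3900 in severed ligament of day 10 and to 5160 to 8010 in unmanipulated ligament, and skeletal muscle markers to 808 to 21700 and 15700 to 138000. Their part in the result was not tested.

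Ccl3 of day 2 and fractalkine show the size of differences that did not pass. Ccl3 stood at 10.07, 10.83, 9.97, 9.48 and 9.94 in severed ligament of day 2, all above the 5 unmanipulated values, at 0.81 ± 0.28 (72-column fit of limma, adjusted p = 0.0968). Cx3cl1 (A_44_P116591), the membrane-bound fractalkine of endothelium and neurons, stood at 8.69, 8.48, 8.64, 8.17 and 8.36 in unmanipulated ligament and at 7.51, 5.64, 7.49, 5.64 and 7.09 in severed ligament of day 2. None of the severed values was above the negative controls. The difference was -1.56 ± 0.70, or -1.79 ± 0.57 in the 70-column fit, and passed in neither (limma, adjusted p = 0.207 and 0.0523). Sham ligament of day 2 averaged 6.12 on this probe, with 0 of 5 values above. The other probe (A_44_P116597) went the other way, at 7.15 in severed and 6.46 in unmanipulated ligament, with 0 and 1 of 5 above. Of all spots, 16.3% to 35.7% stood above the negative controls in severed columns of day 2 and 37.4% to 52.4% in unmanipulated columns.

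Cultured ligament fibroblasts were compared with unmanipulated ligament. By limma 13 chemokine probes passed in the 72-column fit, 4 higher and 9 lower in the fibroblasts, where 7.68% of all probes passed. The 70-column fit called 12, beside 10.3% of all probes. Fewer passed without replicate 2, 3 or 4 of each group (7, 8 and 6 probes). Cxcl3, Ccl6, Ccl12, Ccl19, Ccl21 and Ppbp passed whichever replicate was left out. Cxcl1 and both Ccl7 probes were lost without replicate 2, 3 or 4, one of the latter also without 5, Ccl5 without 2, 4 or 5, and Pf4 without 4. Over the 39 probes the median difference was -0.04, compared with 0.05 over all probes.

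The higher probes were those of neutrophil and monocyte attractants. Cxcl1 stood at 11.80, 11.88, 11.90 and 11.44 in the 4 fibroblast columns with a value, above every ligament column of any group. The difference from unmanipulated ligament was 2.54 ± 0.66 in the 72-column and 4.66 ± 0.42 in the 70-column fit (limma, adjusted p = 0.0079 and 1.51e-12). Cxcl3 (A_44_P363116) stood at 10.11, 9.67, 9.70, 10.12 and 9.80 in fibroblasts and at 7.08, 7.69, 5.64, 6.97 and 6.64 in unmanipulated ligament, a rise of 2.41 ± 0.47 (limma, adjusted p = 0.000174). Its other probe was above the negative controls in 0 of 4 fibroblast columns. Cxcl2 did not share the rise, at -0.91 ± 0.51 (limma, adjusted p = 0.314), with 2 of 5 fibroblast columns above the negative controls.

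Ccl7 stood at 13.81, 13.56, 13.80 and 13.85 in fibroblasts on A_44_P1022002. Both probes rose, by 1.96 ± 0.62 and 2.12 ± 0.56 in the 72-column and by 3.63 ± 0.66 and 3.54 ± 0.54 in the 70-column fit (limma, adjusted p = 0.0362 and 0.00978 in the first). Ccl2 (A_42_P695401) stood at 15.06, 15.05, 15.56 and 5.64, high in 3 columns and at the floor in 1, at 1.82 ± 2.10 (limma, adjusted p = 0.687). Cxcl12 (A_44_P1034439) stood at 11.22, 11.24, 10.66, 11.05 and 10.92, within the range of unmanipulated ligament, at 0.07 ± 0.38. Its probe A_44_P337351 stood at 11.48, 11.22, 11.30 and 11.48 in fibroblasts and at 9.50, 9.77, 9.71, 10.43 and 9.54 in unmanipulated ligament, and passed in the 70-column fit at 1.58 ± 0.48 (limma, adjusted p = 0.0236) but not in the 72-column fit at 0.43 ± 0.75. The 2 Cxcl12 probes thus gave different answers.

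Of the 9 lower probes, those of Ccl6, Ccl21 and Pf4 had the largest differences. Ccl6 stood at 7.41, 6.81, 7.01, 7.37 and 7.04 in fibroblasts and differed by -3.97 ± 0.36 in the 72-column and by -5.10 ± 0.42 in the 70-column fit (limma, adjusted p = 2.94e-13 and 5.31e-15). Ccl21 stood at 5.64 in 3 fibroblast columns and at 6.32 in the fourth, the only one above the negative controls, and differed by -5.82 ± 0.82 (limma, adjusted p = 3.03e-07). Pf4 stood at 6.57, 5.64, 6.50 and 6.51 in fibroblasts and at 13.79, 14.81, 14.42, 15.01 and 13.75 in unmanipulated ligament, a difference of -6.80 ± 1.85 (limma, adjusted p = 0.0125). None of these 3 overlapped between the groups.

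Ppbp, the other platelet chemokine, stood at 6.82, 6.18, 6.23, 6.31 and 6.27 in fibroblasts and at 8.52, 8.76, 8.53, 9.15 and 8.20 in unmanipulated ligament, at -1.77 ± 0.32 (limma, adjusted p = 7.57e-05). Ccl5 stood at 6.30, 6.09, 6.73 and 6.82 in fibroblasts, at -2.43 ± 0.69 (limma, adjusted p = 0.0171). Ccl19, like Ccl21 a ligand of Ccr7, stood at 6.09, 5.64, 6.15, 5.64 and 5.64 in fibroblasts, never above the negative controls, and at 7.18, 8.68, 8.09, 8.71 and 8.64 in unmanipulated ligament. With 4 of 5 unmanipulated values above the negative controls, the Ccl19 mean was at least 3.69-fold lower in fibroblasts, at -2.15 ± 0.49 (limma, adjusted p = 0.00208). Ccl12 stood at 5.64, 5.64, 6.78 and 6.27 in fibroblasts and at 7.61, 7.62, 7.98, 7.07 and 9.45 in unmanipulated ligament, at -2.10 ± 0.39 (limma, adjusted p = 9.54e-05). These 4 chemokines passed in the 70-column fit as well. In the authors' value table the Ccl12 call was lost, at -1.01 (adjusted p = 0.444).

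The last 2 of the 9 lower calls were lost in the 70-column fit. Ccl17, a ligand of Ccr4, was lower at -1.33 ± 0.44 (limma, adjusted p = 0.0489). It missed the threshold with nearly the same size in the 70-column fit, at -1.30 (adjusted p = 0.0911). With the shared array as a random effect it missed at -1.33 (adjusted p = 0.0663). With the sham columns of day 7 averaged into 1 sample it also missed at -1.33 (adjusted p = 0.0536). Ccl24 (A_44_P100334) was called at -1.45 ± 0.45 in the 72-column fit (limma, adjusted p = 0.0313) and stood at -0.20 ± 0.30 in the 70-column fit (adjusted p = 0.8). Neither Ccl24 probe was above the negative controls in any fibroblast or unmanipulated column, so no fold is given. Ccl3 stood at 8.08, 7.78, 7.85, 8.23 and 7.91 in fibroblasts, below all unmanipulated values, at -0.74 ± 0.30 (limma, adjusted p = 0.133).

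**Figure D5:**
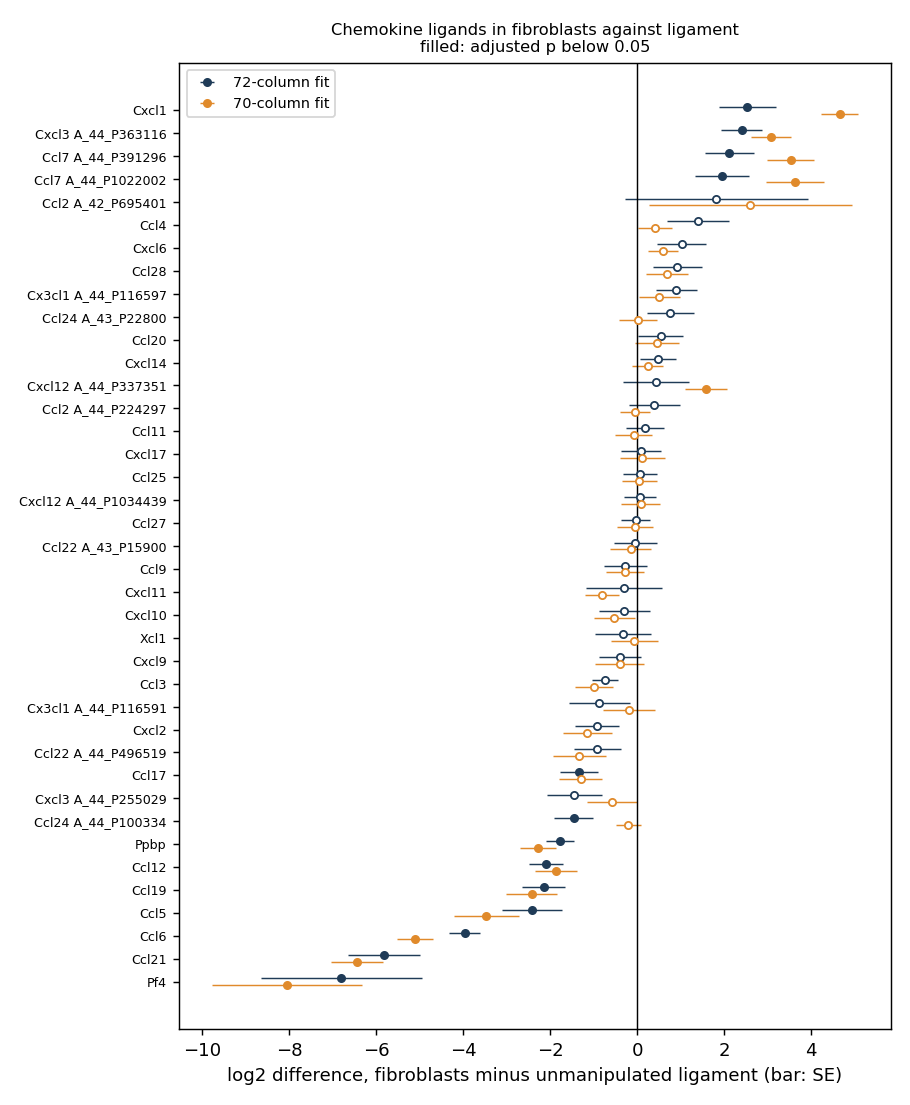
Log2 difference with its SE (x axis), fibroblasts minus unmanipulated ligament, for the 39 chemokine probes (y axis) in the 72-column and 70-column fits, filled where the adjusted p was below 0.05. Cxcl1, Cxcl3 and both probes of Ccl7 lie at the upper end and Ccl6, Ccl21 and Pf4 at the lower end in both fits.

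Cell markers moved with these groups. Macrophage markers summed to 1680 to 1890 in fibroblasts and to 5160 to 8010 in unmanipulated ligament, endothelial markers to 643 to 771 and 2650 to 3910, and T cell markers to 714 to 826 and 1990 to 3060. Red cell markers summed to 652 to 707 in fibroblasts and to 106000 to 156000 in ligament. Of the platelet marker list no gene had a named probe. Of 10 ligament marker probes 4 were lower and 0 higher in fibroblasts (median difference -2.39), and the list summed to 142000 to 209000 against 250000 to 355000 in unmanipulated ligament. Within it Col3a1, a fibrillar collagen, stood at 15.78 ± 0.34 (SD, n = 5) in fibroblasts and 15.82 ± 0.16 (SD, n = 5) in ligament. Tenomodulin, Tnmd, was above the negative controls in 0 of 5 fibroblast columns and stood at 5.88 ± 0.36 (SD, n = 5) there and at 12.43 ± 0.38 (SD, n = 5) in ligament. Keratinocyte markers were higher in fibroblasts, at 2450 to 3400 against 210 to 550, with Krt14 (A_44_P251064) at 11.21 ± 0.20 (SD, n = 5). The part of these other cells in the chemokine differences was not tested.

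Some of the higher and lower genes of the fibroblasts are neighbours in the RefSeq gene order of chromosomes 14 and 10. On chromosome 14 Cxcl2, Cxcl1, Cxcl3, Pf4, Ppbp and Cxcl6 are neighbours, with 1 further gene between Cxcl1 and Cxcl3. Cxcl1 and Cxcl3 rose there in the fibroblasts and Ppbp fell. Pf4 was called lower on a probe with the on or off readings described above. On chromosome 10 Ccl2, Ccl7, Ccl11 and Ccl12 are neighbours, and Ccl7 rose while Ccl12 fell. Ccl5, Ccl9, Ccl6, Ccl3 and Ccl4 follow further along that chromosome, and of these Ccl5 and Ccl6 fell.

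The reference RNA was compared with unmanipulated ligament as a check on which probes can report. By limma 10 of 38 chemokine probes passed in the 72-column fit, 4 higher and 6 lower in the reference, where 27.5% of all probes passed (13.8% higher and 13.7% lower). The 70-column fit called 13, beside 31.4%. Ccl9, a myeloid chemokine of rodents, stood between 8.20 and 8.75 in the 6 reference columns and at 5.64, 5.64, 5.97, 6.18 and 6.27 in ligament, never above the negative controls. Averaged over both dyes, Ccl9 was at least 5.28-fold higher in the reference. The Cy5 comparison gave 2.48 ± 0.57 (limma, adjusted p = 0.00052). Cxcl9 stood between 8.43 and 11.63 in 5 reference columns of both dyes and at 7.00, 6.67, 6.08, 6.82 and 6.94 in ligament. In the Cy5 comparison Cxcl9 passed as higher in the reference (limma, adjusted p = 0.00319). Its reference columns, repeats of 1 RNA, spread widely, so no fold is given. The Cxcl9 call was lost without replicate 3, at 1.46 (adjusted p = 0.114), and with misread stretches kept, at 2.04 (adjusted p = 0.0525). Both probes stood above the negative controls in each of these reference columns.

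Ccl24 (A_43_P22800), a ligand of Ccr3, stood between 7.11 and 7.74 in the reference and at 5.64, 5.64, 5.64, 6.22 and 5.64 in unmanipulated ligament. The Ccl24 mean over both dyes was at least 2.68-fold higher in the reference. Its call was lost without replicate 2 or 3 and in the authors' value table (adjusted p = 0.0658, 0.0535 and 0.0672). Ccl21 was lower in the reference at -3.95 ± 0.95, Cxcl12 (A_44_P1034439) at -1.72 ± 0.43 and Ccl3 at -1.67 ± 0.33 (limma, adjusted p = 0.0009, 0.00156 and 5.57e-05). Cxcl12 ran from 8.15 to 9.24 in the reference, below all 5 unmanipulated ligaments. Ccl3 ran from 6.59 to 6.94, also without overlap. Cxcl2 was at 5.64 in 4 of 6 reference columns, at -1.93 ± 0.58 (limma, adjusted p = 0.00947), and was lost without replicate 1 or 3 (adjusted p = 0.0655 and 0.0855). The Cxcl12 call was lost in the authors' value table, at -1.63 (adjusted p = 0.0831).

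Of the receptors, 19 of the 22 listed genes had a probe, and of 13 inducers of chemokines and NF-kB feedback genes 12 had one. None passed in any severed minus sham comparison in either fit. In the fibroblasts 5 of 21 receptor probes fell and none rose, with 4.33% of all probes lower and 3.35% higher. Cxcr4, the receptor of Cxcl12, differed by -1.70 ± 0.41 and -1.90 ± 0.36 on its 2 probes, Ccr1 by -2.50 ± 0.52 and Ccr2 by -1.56 ± 0.49 (limma, adjusted p = 0.00331, 0.000108, 0.000516 and 0.0384). In the 70-column fit Ccr2 missed the threshold (adjusted p = 0.0504) and Cxcr5, the chemokine receptor of B cells, passed at -1.41.

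Cxcr5 was lower than in unmanipulated ligament at -1.70 ± 0.44 on day 2, -2.27 ± 0.44 on day 10 and -2.43 ± 0.44 on day 14 of severed ligament (72-column fit of limma, adjusted p = 0.024, 0.00198 and 0.000619). That is 1 of 21 receptor probes on each day, beside 3.03%, 2.86% and 2.53% of all probes. The dyes of day 2 are in doubt, and no receptor probe passed in severed minus sham. Cxcr2, the neutrophil receptor of Cxcl1, ran from 5.64 to 7.95 in severed and from 5.64 to 6.13 in sham ligament of day 1, at 1.12 ± 0.77 (limma, adjusted p = 1). Ackr3, the scavenger of Cxcl12, differed by -0.20 ± 0.89 between fibroblasts and ligament (limma, adjusted p = 0.931).

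Il1b, an inducer of many chemokines, ran from 10.84 to 12.31 in unmanipulated ligament on A_43_P14911 and stood at 5.64 in all 4 fibroblast columns. No fibroblast column was above the negative controls on either probe. The fitted differences of -5.76 ± 0.68 and -3.85 ± 0.30 (limma, adjusted p = 2.11e-09 and 2.37e-15) are therefore no exact sizes, while Icam1, an adhesion molecule under NF-kB control, rose by 1.85 ± 0.37 (limma, adjusted p = 0.000384). Il6 ran from 5.64 to 7.78 in fibroblasts, at 0.02 ± 0.49, and Tnf was above the negative controls in 0 of 5 fibroblast and 0 of 5 unmanipulated columns. On day 1 Il6 differed by 0.84 ± 0.79 and Tnf by 0.89 ± 0.91 between severed and sham ligament (limma, adjusted p = 1). Il1b was lower in sham ligament of day 4 on A_44_P230320, at -1.34 ± 0.30 (limma, adjusted p = 0.0378), and Il6 in severed ligament of day 14, at -1.72 ± 0.49 (limma, adjusted p = 0.0394), though not in the 70-column fit at -1.05 ± 0.44 (adjusted p = 0.197). In that fit Ptgs2, the inducible prostaglandin synthase, also rose in fibroblasts at 1.57 and Nfkbia, the NF-kB inhibitor, fell at -1.03 (limma, adjusted p = 0.0126 and 0.0275).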

How the data were processed

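Total RNA of 72 samples was read on Agilent rat arrays. The 5 flag columns of the fibroblasts were not used. By identical spot flags, 29 of 43 arrays carried 2 samples in different dyes. The authors deposited intensities, which per the file headers are the median foreground minus background of 1 scanner channel; their normalization is not given in the sources used here. A table of the authors' log2 values, deposited with scale and centring unstated (column medians 6.37 to 7.78), served as an alternative. Groups held few arrays and many spots were dim, and the part of either in the precision was not tested. Each limma p-value weighs a difference against the residual spread between columns, pooled over the groups of the fit. The fibroblast columns are serial passages and the reference columns are repeats of the same RNA. Their p-values therefore do not cover variation between independent cultures or between reference RNAs.

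Control spots were left out, columns were quantile-normalised, floored at 50 and put on a log2 scale, misread stretches were removed in both fits (500 spots whose correlation with the ligament median was under 50% of the typical column's), and spots of a probe were averaged. Probes needed an intensity over 100 in 3 columns. limma 3.58.1 in R 4.3.3 fitted 15 group means and a dye term, with Benjamini-Hochberg adjustment over all probes. The script was tested on simulated data. Members and gene lists were chosen with earlier results of these data known. Values by sample are given for up to 12 members with the smallest adjusted p, 12 further listed chemokines (Ccl2, Ccl7, Ccl20, Cxcl1, Cxcl2, Cxcl10, Cxcl12, Cxcl14, Cx3cl1, Ccl21, Pf4 and Ppbp) and the 3 others most often detected. Gene names, order and promoters came from RefSeq tables of GRCr8, which named 18517 probes. Ccl1, Ccl26, Cxcl13 and Cxcl16 were not analysed here. One listed receptor is not reported here by name. Alternatives are in the closing section.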

Additional observations from a re-analysis of the deposited data

Results flagged for a closer look

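In groups of 4 to 6 columns the highest or lowest level was set against the gap to its neighbour by Dixon's test. By chance the test flags about 1 in 20 such groups, if no values are held at a floor. Of 73 groups whose levels are printed, 9 had such a column. A group with all values but 1 at the floor of 5.64 is always flagged. That was so for Cxcl1, Cxcl14, Ccl24 and the fibroblasts of Ccl21 below, so 9 of 73 cannot be set against that rate. Cxcl1 stood at 6.04 in severed day 10 replicate 4, with the others at 5.64. Cxcl2 stood at 6.19 in the reference RNA in Cy3, replicate 1, next to 5.68. Ccl2 stood at 5.64 in fibroblast column 5, far below the next value of 15.05. Ccl21 stood at 13.39 in sham day 1 replicate 2, above 12.15, and at 6.32 in fibroblast column 5, above 5.64. Pf4 stood at 5.64 in fibroblast column 3, below 6.50. Ppbp stood at 6.82 in fibroblast column 1, above 6.31. Cxcl14 stood at 5.71 in unmanipulated replicate 2 and Ccl24 (A_43_P22800) at 6.22 in unmanipulated replicate 4, with the others of both at 5.64.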

How the results depend on the processing

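No severed minus sham count of chemokine probes moved from 0 under any alternative, except on day 1, where 1 passed with median scaling (Ccl11) and 1 in the 70-column fit without the dye term (Cxcl1). Against unmanipulated ligament, median scaling called 3 probes in sham day 4 and 7, 6 and 9 in severed days 2, 10 and 14, compared with 0, 0, 2 and 2, and the authors' value table called 2, 7 and 7 in the first 3 of these. Keeping misread stretches called 1, 0 and 1 on days 7, 10 and 14. The 70-column fit called 1 on day 14, with or without the dye term, and without it 1 on day 2. In the reference RNA 16 passed with median scaling and 16 in the 70-column fit without the dye term. With 1 replicate left out, counts ran from 0 to 2 on days 10 and 14, from 6 to 11 in fibroblasts and from 4 to 10 in the reference. The cause was not tested. Ccl24 (A_44_P100334) in fibroblasts turned to 4.24 in the value table (adjusted p = 0.000122). For the day 4 minus day 1 change, none of which passed, Ccl7 turned to -0.18 (70 columns, with or without dye term) and -0.11 (misread kept) on A_44_P1022002, and to 0.10 (misread kept) and 1.05 (median scaling) on A_44_P391296, where leaving out 1 replicate gave -0.33 to 0.10. Ccl3 turned to -0.50 (70 columns, with or without dye term), -0.29 (misread kept), -0.02 (offset for floor), -0.56 (value table), and ran from -0.34 to 0.34 with 1 replicate left out (-0.07, -0.08 and -0.34 without replicate 1, 3 or 4).

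A block for the array that 2 columns shared, fitted as a random effect (consensus correlation 0.317), moved no count of chemokine probes by over 1.5 times. Among all probes it called 74 in the balanced mean, 22 on day 14, 76 in the change from day 2 and 9 in the change from day 1 to day 4 (0.18%, 0.055%, 0.185% and 0.0219%), compared with 1, 1, 1 and 0. It called 12 probes in the fibroblasts, without Ccl17. On 25 arrays shared by 2 ligaments the deviations from the group means correlated at 0.10 to 0.81, over 0.1 on 24, and 2 of these arrays joined unequal replicate numbers. Within a day the SE of a chemokine difference had a median of 0.825 to 0.978, and the source of its size was not tested.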
